A study of Populus alba x Populus glandulosa with 9 samples.

Results

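The comparison described here sets the woody lower stem of 84K poplar against its elongating upper stem. It uses 6 of the 9 libraries of the series: 3 from internodes 14 to 15 (bottom) and 3 from internodes 2 to 3 (top), chosen by the position given in the sample titles. The other 3 libraries, from internodes 9 to 10 (middle), helped to estimate the spread in the test and are shown beside the ends. 84K is a laboratory tree, the cross of Populus alba with Populus glandulosa. All groups were of the same wild-type cultivar, were 6 months old and stood about 200 cm tall after propagation from cuttings and growth under natural conditions. No treatment separated them, so position on the stem is the only labelled difference. The labels leave unsaid whether the 3 libraries of a position stem from different plants, and the p-values reflect no more than the variation among these libraries, part of which may be technical.

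In a poplar shoot, the internodes just below the apex are still lengthening and consist largely of primary tissues: epidermis, cortex, pith and young vascular bundles. Further down, the vascular cambium divides to give secondary phloem outwards and secondary xylem, the wood, inwards. Xylem fibres and vessels lay down thick secondary walls of cellulose, xylan and lignin, and vessels then die, so a lower internode holds a different mixture of cells from an upper one. RNA was taken from whole stem pieces, in which fewer cells of a type and less RNA per cell cannot be told apart. The files do not pair gene identifiers with product names, so the labelled tissue could not be checked against marker genes, and functions are left out. Genes are described by level, direction and class of identifier, and the few that moved most are given by identifier.

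The 6 libraries held 52383942 to 75217046 counts each. Levels are given in FPKM, which the authors scaled to the length of the gene and the total of the library. Top library 1 lay nearer the bottom libraries than the other top libraries did. On log2(CPM + 0.5), where CPM scales counts to a common library total, its correlation with the bottom libraries was 0.879 to 0.905 over the 52436 genes tested, and that of top libraries 2 and 3 was 0.827 to 0.883. These correlations are across genes, which are not independent replicates. Replicates were more alike at the bottom: the median SD of a gene over its 3 libraries was 0.24 in the top and 0.20 in the bottom on that log2 scale.

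Between top and bottom, gene activity shifted in both directions, and among abundant genes falls were more frequent than rises. Of the 52436 genes tested with edgeR's quasi-likelihood test at a Benjamini-Hochberg adjusted p under 0.05, 6366 (12.1%) rose and 7932 (15.1%) fell, together 27.3%. Of these changes, 3912 rises and 4528 falls were at least 2-fold. The other 2454 rises and 3404 falls (38.5% and 42.9%) were smaller than 2-fold. Changes of at least 4-fold were seen in 1947 rises and 1888 falls, or 30.6% and 23.8% of them. Changes of at least 16-fold were seen in 576 rises and 709 falls. Among the latter, 160 of the rises and 232 of the falls had at least 10 FPKM at the end where they were higher.

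A stricter test asked which genes changed by more than 2-fold beyond their error. By edgeR's glmTreat, 1073 genes (2.05%) rose and 1097 genes (2.09%) fell by more than that, so the 2 directions were nearly equal in number among the firmest large changes. The 3 libraries of the bottom lay wholly above those of the top in 13050 genes (24.9%) and wholly below them in 11513 genes (22.0%), with no regard to the test. Of the called genes, 6329 of the 6366 rises and 7743 of the 7932 falls had ends that did not overlap in this way. They were called from the same libraries, so these high counts follow largely from the choice and are a description. Which direction held more of the calls depended on the scaling. Falls outnumbered rises in 19 of the 22 alternative settings and rises outnumbered falls in 3, among them edgeR on library totals with 7329 rises and 6673 falls. Taken gene by gene against the main fit, the median shift in log2 fold change was at most 0.0742 in any setting.

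The number of calls depended on single libraries. Without top library 1, 7212 genes rose and 7694 fell. Without top library 2, 4227 genes rose and 5298 fell, and without bottom library 2, 3576 rose and 4421 fell. Without bottom library 3, 4594 rose and 5223 fell. Leaving replicate number 2 out at every position gave 2420 rises and 3255 falls, and leaving out number 3 gave 1343 and 1555. In the plot of fold change against level, genes of both directions lie at every level. Most of the large folds belong to genes under 100 FPKM, as do most genes tested. Over the 9 libraries, 942 of the 52436 had a mean of 100 FPKM or more.

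**Figure D1:**
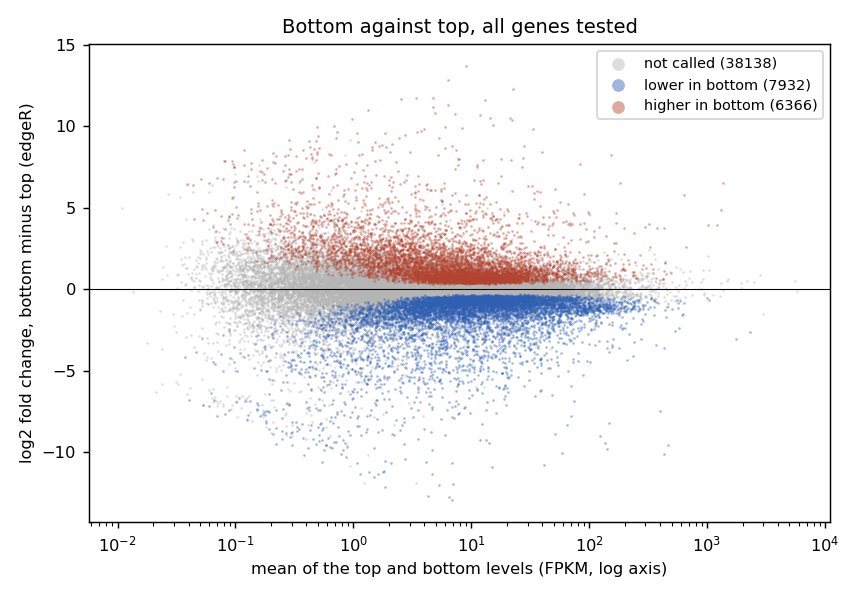
Each point is 1 of the 52436 genes tested: the horizontal axis is the mean of its top and bottom levels in FPKM (log axis) and the vertical axis its log2 fold change from top to bottom in edgeR. The 6366 genes that rose are red, the 7932 that fell are blue and the others grey.

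The balance of rises and falls changed with how abundant a gene was. Genes were sorted by their mean FPKM over all 9 libraries. Among the 7384 genes under 1 FPKM, 9.20% rose and 7.67% fell. Among the 27109 genes at 1 to 10 FPKM the directions were nearly even, with 12.2% rising and 12.5% falling. Among the 17001 genes at 10 to 100 FPKM, 13.2% rose and 21.7% fell. Among the 942 genes at 100 FPKM or more, 131 (13.9%) rose and 294 (31.2%) fell. The percentage that fell thus went from below the 15.1% of all genes to above it with rising level, while the percentage that rose differed little between the classes above 1 FPKM.

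The median log2 fold change of all genes of a class, called or not, went the same way. It was 0.17 under 1 FPKM, 0.03 at 1 to 10 FPKM, -0.06 at 10 to 100 FPKM and -0.22 at 100 FPKM or more. These class medians are from the main edgeR fit, and their dependence on the scaling was not tested. In the most abundant class, falls outnumbered rises in all 22 alternative settings, though narrowly with glmTreat, at 36 falls and 29 rises. The count of rises in this class was sensitive: it was 75 and 78 without top library 2 or 3, 77 and 69 without bottom library 1 or 2, and 52 and 31 with number 2 or 3 left out at every position, where the falls numbered 188 and 85. Without top library 1 there were 189 rises and 279 falls in this class. The sizes of called changes were alike in both directions in this class, with a median log2 fold change of 1.27 for rises and -1.15 for falls.

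**Figure D2:**
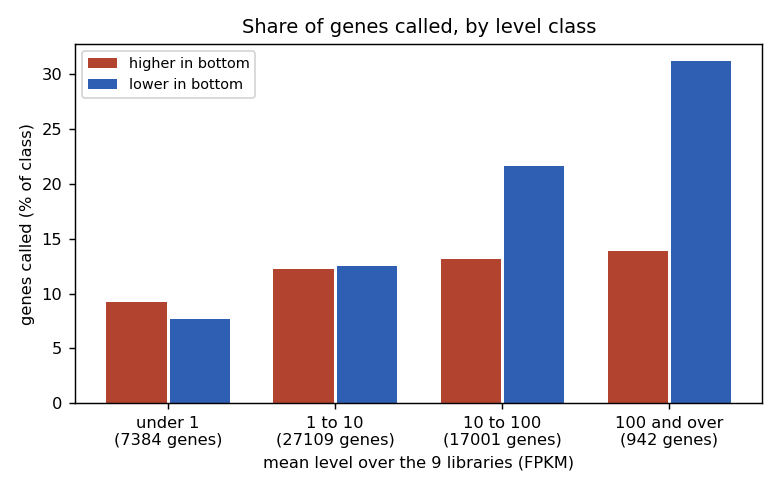
Bars give the percentage of the genes in each class of mean FPKM that were called higher (red) or lower (blue) in the bottom. Falls go from 7.67% of genes under 1 FPKM to 31.2% of genes at 100 FPKM or more, and rises from 9.20% to 13.9%.

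The shift can also be followed as parts of the transcript pool, the share of a library's counts that a set of genes holds. The sets below were chosen by this same contrast, so their shares at the 2 ends are a description. Genes called lower in the bottom held 25.9%, 29.9% and 29.0% of the counts in top libraries 1 to 3, and 13.5%, 11.9% and 13.3% in bottom libraries 1 to 3. Genes called higher held 8.97%, 7.38% and 7.62% of the counts in the top libraries and 18.4%, 19.7% and 18.2% in the bottom libraries. The genes that fell thus gave up a mean of 15.4 percentage points of the pool, and the genes that rose gained 10.8 percentage points. Genes not called took up the remainder, going from 62.7% to 65.1% of the counts in the top libraries to 68.1% to 68.4% in the bottom libraries. Top library 1 was the nearest of the 3 to the bottom in both called sets. The middle libraries, which were not in the contrast, held 16.0% to 20.01% of their counts in the genes that fell and 14.5% to 16.6% in those that rose, between the 2 ends in every library.

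**Figure D3:**
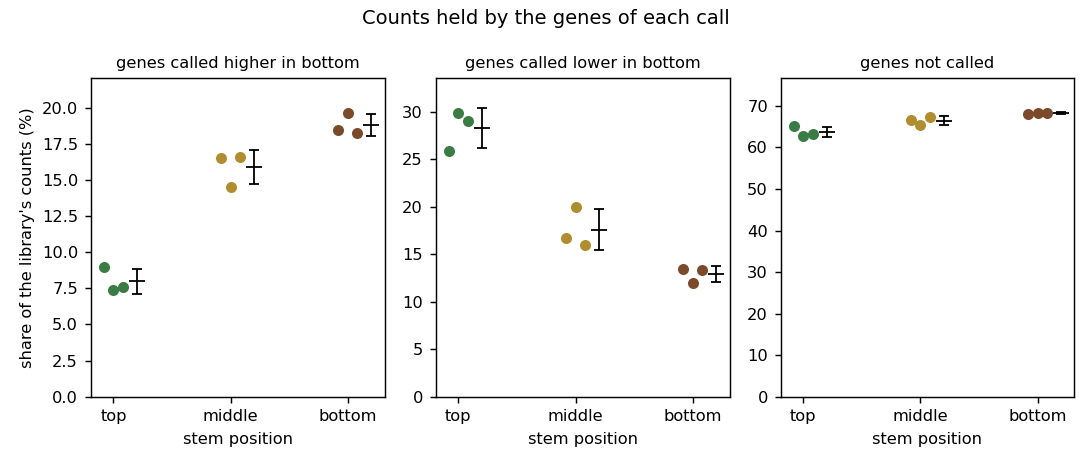
Each panel shows the share of a library's counts (%, from 0) held by 1 set of genes, with 3 libraries a position as points and the mean ± SD as a bar beside them. Genes called higher go from 7.38% to 8.97% in the top to 18.2% to 19.7% in the bottom, and genes called lower from 25.9% to 29.9% to 11.9% to 13.5%.

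The whole profiles were also compared, without choosing genes. The distance between 2 libraries is given as the percentage of counts that would have to be moved to other genes to turn 1 profile into the other. It was 19.5% to 26.8% over the 9 pairs of a top and a bottom library, 11.4% to 14.7% over the 3 pairs of top libraries and 9.86% to 11.0% over the 3 pairs of bottom libraries, so every pair across the stem lay further apart than any pair within a position. Between the mean profiles of the 2 ends, 21.2% of the counts moved, summed over all genes, called or not. The sum includes variation between replicates, whose part was not tested. In this sum, the movement was spread thinly. The 20 genes with the largest gains supplied 7.61% of all gain and the first 100 supplied 16.7%, and it took 1486 genes to reach 50% of it. On the losing side the first 20 genes supplied 6.54% of the loss, the first 100 supplied 14.4%, and 1295 genes made up 50%. Of the 100 genes with the largest losses 85 were called lower, and of the 100 with the largest gains 60 were called higher. Over all genes tested, 15.1% were called lower and 12.1% higher. These genes were ranked by the same contrast, so their high counts of calls follow from the choice and are a description.

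How strongly the pool is concentrated in abundant genes was measured in each library by ranking its own genes. The 100 most abundant genes by counts held 7.93%, 7.05% and 5.97% of the counts in top libraries 1 to 3 and 7.59%, 7.72% and 7.84% in bottom libraries 1 to 3. Top library 1 was above all bottom libraries and top library 3 well below them, so the ends overlapped. The means were 6.98 ± 0.982% in the top and 7.72 ± 0.127% in the bottom (SD, n = 3), with an exact two-sided permutation p of 0.4, where 0.1 is the smallest that 3 libraries against 3 can give. The 500 most abundant genes held 16.1 ± 1.07% and 16.7 ± 0.0853% (SD, n = 3, exact permutation p = 0.5). Without top library 1 the differences were 1.21 and 1.09 percentage points, against 0.736 and 0.594 with it. Without top library 3 they were 0.228 and 0.0266 percentage points.

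Measures over the whole ranking were mixed. The most abundant genes that together hold 50% of the counts numbered 5184, 5173 and 5327 in the top libraries and 5386, 5253 and 5530 in the bottom libraries (exact permutation p = 0.2). Those that hold 90% of the counts numbered 24395, 23752 and 24390 in the top and 24498, 24411 and 24876 in the bottom, with no overlap, though the highest top and lowest bottom library were close (exact permutation p = 0.1). The genes ranked 501 to 1000 held 6.58% to 6.95% of the counts in the top and 6.16% to 6.53% in the bottom, again with no overlap (exact permutation p = 0.1), while ranks 101 to 500 and 1001 to 5000 overlapped (exact permutation p = 0.3 and 0.2). The effective number of genes, the number of equally abundant genes that would give the same Shannon entropy, was 21231 ± 671 in the top and 21242 ± 229 in the bottom (SD, n = 3, exact permutation p = 1). Its difference of 10.6 changed sign without top library 1 or 2 or bottom library 3. Thinned to the 20717021 read pairs of the smallest library of the series, a top library held a mean of 55296 ± 658 genes and a bottom library 55044 ± 203 (SD, n = 3, exact permutation p = 0.9). The 20 most abundant genes held 3.07%, 2.62% and 2.19% of the counts in the top libraries and 3.02%, 3.13% and 3.39% in the bottom libraries (exact permutation p = 0.2). The SD was larger over the top libraries for the genes holding 90% of the counts, ranks 1001 to 5000 and the 20 most abundant genes. The same held for the effective number of genes and the genes after thinning. It was larger over the bottom libraries for the genes holding 50% of the counts and ranks 101 to 500. For ranks 501 to 1000 the SDs were nearly equal, and none of these differences was tested.

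The ends did not overlap in the number of genes above 100 FPKM or above 10 FPKM. Genes at 100 FPKM or more numbered 1137, 1004 and 1134 in top libraries 1 to 3 and 891, 901 and 840 in bottom libraries 1 to 3, with 890, 948 and 897 in the middle. The lowest top library was above the highest bottom library, and the mean difference was -214 genes, with an exact two-sided permutation p of 0.1, the smallest possible. With FPKM rescaled to the same sum in every library the difference was -179 genes, and at a threshold of 200 FPKM it was -49.7 genes (exact permutation p = 0.2). Without any 1 of the 6 libraries it was -258 to -192 genes. Genes at 1000 FPKM or more went the other way in their means, with 24, 21 and 18 in the top libraries and 29, 27 and 23 in the bottom libraries, but these ranges overlapped (exact permutation p = 0.2). Genes at 10 FPKM or more numbered 17154 to 17309 in the top and 17573 to 17940 in the bottom, which did not overlap (exact permutation p = 0.1). At 1 FPKM or more there were 42744 to 43866 genes in the top and 43769 to 44226 in the bottom, which overlapped (exact permutation p = 0.2). By FPKM as deposited, the bottom libraries thus held more genes above 10 FPKM and fewer above 100 FPKM. Only the count at 100 FPKM or more was repeated with other scalings. In terms of counts, genes at 100 FPKM or more held 21.7%, 19.1% and 19.6% in the top libraries and 18.5%, 18.7% and 17.9% in the bottom libraries (exact permutation p = 0.1).

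**Figure D4:**
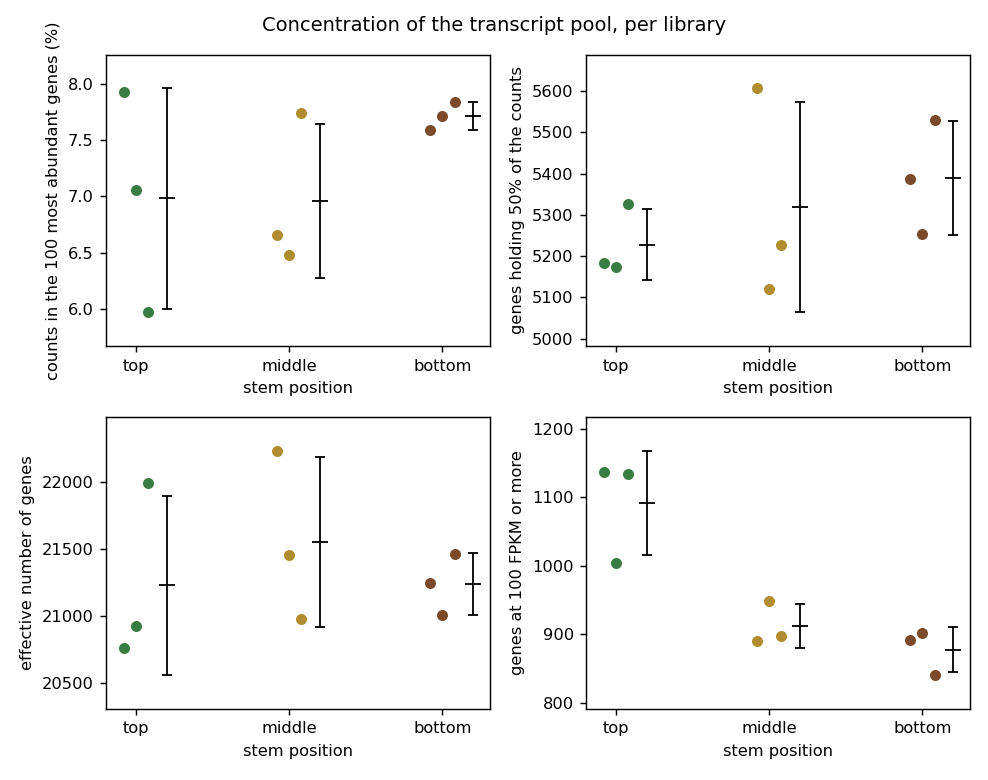
Points are single libraries, 3 a position, and bars beside them the mean ± SD. The vertical axes do not start at 0. The share of the 100 most abundant genes overlaps between the ends (5.97% to 7.93% in the top, 7.59% to 7.84% in the bottom), as do the genes holding 50% of the counts and the effective number of genes, whereas genes at 100 FPKM or more number 1004 to 1137 in the top and 840 to 901 in the bottom.

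The sets of abundant genes at the 2 ends overlapped in part. Taking mean levels, 596 genes were at 100 FPKM or more at both ends, 487 only in the top and 285 only in the bottom. Of the 487, 408 were called lower in the bottom, and their median level went from 132 FPKM in the top through 74.7 FPKM in the middle to 63.7 FPKM in the bottom. Of the 285, 153 were called higher, and their median went from 67.0 through 109 to 130 FPKM. Of the 596, 137 fell, 46 rose and 413 were not called. These sets were chosen by their levels at the ends, so the directions follow from the choice and are a description.

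Among the 100 genes with the highest mean FPKM at each end, 52 were on both lists. A pair of top libraries shared 71 to 72 of its 100 most abundant genes and a pair of bottom libraries 72 to 80, while a top and a bottom library shared 42 to 58. Of the 100 most abundant genes of the top, 44 were called lower in the bottom and 0 higher. Of the 100 most abundant of the bottom, 28 were called higher and 8 lower. Over all genes tested, 12.1% rose and 15.1% fell, and among genes at 100 FPKM or more 13.9% rose and 31.2% fell. The lists were chosen by level at 1 end, so these directions follow in part from the choice and are a description. Even the genes that left the list seldom became rare: of the 48 genes on the top list alone, 9 were under 100 FPKM in the bottom and 3 under 10 FPKM. Of the 48 on the bottom list alone, 10 were under 100 FPKM in the top and 0 under 10 FPKM. The top list held 6.25%, 5.41% and 4.87% of the counts in the top libraries and 4.52%, 4.22% and 4.64% in the bottom libraries. The bottom list held 5.52%, 4.01% and 3.82% in the top libraries and 6.30%, 6.21% and 6.35% in the bottom libraries. Top library 1 held the most of both lists among the top libraries.

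Single genes were picked as the 2 rises and 2 falls with the largest difference in mean FPKM, among called genes whose ends did not overlap. Since they were picked for this difference, their levels describe the contrast and are no separate evidence for it. The largest gain in FPKM was that of Pop_A09G059553. It had 13.3, 36.2 and 33.5 FPKM in top libraries 1 to 3, 2283, 1582 and 2574 FPKM in the middle libraries and 2536, 2362 and 3260 FPKM in bottom libraries 1 to 3. All 3 bottom libraries were far above the top, and so were all 3 middle libraries. The mean rose from 27.7 ± 12.5 to 2719 ± 476 FPKM (SD, n = 3), a ratio of 98.3, and the fitted log2 fold change was 6.54 with a standard error of 0.46 (edgeR adjusted p = 0.000378). In rank by mean FPKM it went from number 5684 in the top to number 5 in the bottom.

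Pop_G09G014168 had the second largest gain in FPKM. In share of counts, which grows with gene length, its gain was the larger of the pair, from 0.00508% to 0.155% against 0.000963% to 0.0947%. Its levels were 30.7, 76.8 and 143 FPKM in top libraries 1 to 3, 2452, 1401 and 2514 FPKM in the middle and 2172, 2406 and 3076 FPKM in the bottom. The top libraries differed among themselves by more than 4-fold, with library 1 lowest, and still lay far below every bottom library. The mean rose from 83.7 ± 56.7 to 2551 ± 469 FPKM (SD, n = 3), a ratio of 30.5, with a log2 fold change of 4.86 and a standard error of 0.57 (edgeR adjusted p = 0.00142). It was number 1379 in the top and number 7 in the bottom. Both genes stayed called in glmTreat and in the 21 other alternative settings, the latter with edgeR, DESeq2 or limma adjusted p-values of at most 0.0271 and 0.0299.

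The largest loss in FPKM was that of Pop_A04G029312, the fourth most abundant gene of the top. It had 5188, 4725 and 1950 FPKM in top libraries 1 to 3, 378, 601 and 458 FPKM in the middle and 1132, 340 and 545 FPKM in the bottom. Top library 3 was the lowest of the top and bottom library 1 the highest of the bottom, and these 2 lay less than 2-fold apart. The mean fell from 3955 ± 1751 to 672 ± 411 FPKM (SD, n = 3), with a log2 fold change of -2.63 and a standard error of 0.53 (edgeR adjusted p = 0.008). It lost its call with replicate number 2 or 3 left out at every position (edgeR adjusted p = 0.0672 and 0.0657, in a range over the 21 alternatives other than glmTreat of 7.05e-07 to 0.0672). In glmTreat, which asks for a change beyond 2-fold, it was not called either (edgeR adjusted p = 0.0552).

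Pop_G04G066623, the fifth most abundant gene of the top, followed a like course. Its share of counts fell by more than that of Pop_A04G029312, from 0.237% to 0.0304% against 0.174% to 0.0296%. It had 4128, 3688 and 1627 FPKM in top libraries 1 to 3, 147, 473 and 200 FPKM in the middle and 857, 151 and 204 FPKM in the bottom. As in the preceding gene, top library 3 and bottom library 1 came nearest to each other. The mean fell from 3148 ± 1335 to 404 ± 393 FPKM (SD, n = 3), with a log2 fold change of -3.03 and a standard error of 0.78 (edgeR adjusted p = 0.0209). This call was lost without top library 2 (edgeR adjusted p = 0.0518), without bottom library 2 or 3 (0.0664 and 0.0679) and with replicate number 2 or 3 left out at every position (0.0931 and 0.122), in a range over the 21 alternatives other than glmTreat of 0.00229 to 0.122. In glmTreat it was not called either (edgeR adjusted p = 0.107). Both genes remained among the 100 most abundant of the bottom, at numbers 42 and 100.

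**Figure D5:**
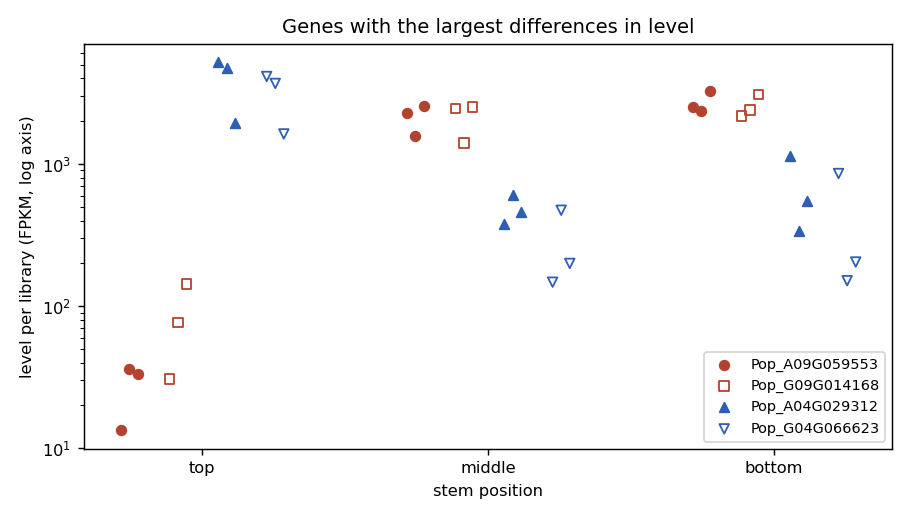
Levels in FPKM (log axis) of the 4 genes with the largest differences, with 1 point per library at each position. Pop_A09G059553 and Pop_G09G014168 (red) go from 13.3 to 143 FPKM in the top to 2172 to 3260 FPKM in the bottom, and Pop_A04G029312 and Pop_G04G066623 (blue) from 1627 to 5188 FPKM to 151 to 1132 FPKM.

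Few of the called genes were seen at 1 end alone. Among the rises, 108 genes had 0 counts throughout the top, of which 40 reached a mean of 1 FPKM and 6 reached 10 FPKM in the bottom, with a highest mean of 44.96 FPKM. Among the falls, 125 genes had 0 counts throughout the bottom, of which 64 had at least 1 FPKM and 4 at least 10 FPKM in the top, with a highest mean of 14.02 FPKM. Among genes with a change of at least 16-fold, 25 rises reached 100 FPKM in the bottom and 26 falls started at 100 FPKM or more in the top.

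Calls also varied with gene length, which was derived from the ratio of counts to FPKM for 50958 genes (97.2% of those tested). In the shortest of 5 equal classes, up to 765 bases, 10.3% of genes rose and 15.1% fell. In the longest class, from 2434 bases, 13.8% rose and 11.6% fell. The percentage that rose went up through the 5 classes, at 10.3%, 11.7%, 12.2%, 13.6% and 13.8%, and the percentage that fell was highest in the second class, at 18.8%. The median log2 fold change of all genes went from -0.04 in the shortest class to 0.06 in the longest. The rises in the shortest class were the larger ones, with a median log2 fold change of 1.96 against 0.86 in the longest class. For falls the median was -1.24 in the shortest class and -1.15 in the longest. Longer genes collect more counts at the same FPKM. The part of length in the calls was not tested.

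Identifiers carry a letter and, for the letters A and G, a number from 1 to 19, and the calls were counted in each group of letter and number as a description. The percentage of tested genes that rose had a median of 12.1% over the 19 groups of each letter, with a range of 10.6% to 15.8% for A and 10.1% to 18.0% for G. The highest value of each letter was that of number 11. In that number 153 of 970 genes of letter A and 77 of 427 genes of letter G rose, against 12.1% of all genes. The percentages that fell there were 13.0% and 15.0%, and over all groups they ranged from 13.0% to 17.1% for A and from 13.9% to 17.5% for G. What the numbers stand for is not given in the sources used here.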

How the data were processed

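The deposited table of whole-number read counts held 85755 gene identifiers in 9 libraries, and the authors' deposited FPKM table held the same genes. Reads had been trimmed with Trimmomatic 0.36 and aligned with HISAT2, per the submitters' processing notes. The sources used here name no counting program, genome build, annotation or strand setting, so reads shared by near-identical copies or by overlapping or antisense genes could not be set apart. Every count was even (0 odd entries), so a read pair is taken as 2 counts. The main test and its filter used the counts as deposited. With counts halved to read pairs, 6524 of 49980 genes tested rose and 8054 fell. Column names match the codes that the titles carry, and other samples had 0 columns.

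Counts were tested with edgeR 4.0.16 (R 4.3.3) after filterByExpr (minimum count 10, minimum total 15) and TMM scaling, in 1 quasi-likelihood model of all 9 libraries with a coefficient per position and the contrast bottom minus top. The standard error of a log2 fold change is its size over the square root of F. A fit without 1 library leaves 2 at that position. Alternatives used DESeq2 1.42.0, and limma 3.58.1 on log2(FPKM + 1) and log2(FPKM + 0.1). They also used other scalings, no filter, counts halved to read pairs, a replicate block and libraries left out. Values of 1 per library were compared by exact two-sided permutation tests over libraries. Named genes followed the rule given with them, which was set for identifiers without product names. The edgeR fit and the concentration measures were tested on simulated data. The comparison, the rule and the measures were chosen with earlier results of these data known. The level of 100 FPKM as a count per library was added after the values were seen. Counts cover counting error only as far as reads are independent molecules. The labels do not say whether replicate numbers pair the libraries, and the libraries were not treated as paired. Gene lists by product name could not be matched.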

Additional observations from a re-analysis of the deposited data

How the results depend on the processing

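Of the 22 alternatives to the edgeR test, 17 left the number of rises and 17 the number of falls within 1.5 times of 6366 and 7932. glmTreat against a 2-fold change gave 1073 and 1097, by its construction, and 29 and 36 among genes at 100 FPKM or more, where DESeq2 gave 198 rises. DESeq2 called 8996 rises and 9899 falls over all genes. Without 1 library there were 3576 to 7212 rises and 4421 to 8273 falls, and 69 to 189 rises and 223 to 303 falls at 100 FPKM or more. With a replicate number left out at every position there were 1343 (number 3), 2420 (number 2) and 4514 (number 1) rises and 1555, 3255 and 5380 falls, and 31, 52 and 131 rises and 85, 188 and 221 falls at 100 FPKM or more. They have fewer libraries, and further causes were not tested. Same-numbered libraries of different positions had deviations correlated at -0.156 to 0.27, and differently numbered ones at -0.188 to 0.160. The numbers were not taken to pair the libraries. However, the 3 same-numbered pairs of a top and a middle library were at 0.112 to 0.27, above the differently numbered ones at -0.188 to 0.0384. With the replicate number as a block, 6024 genes rose and 7368 fell, and all 4 named genes kept their calls.

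The differences in the shares of the 100 and 500 most abundant genes and in the genes holding 50% of the counts kept their sign in all 10 alternatives each, at 0.228 to 1.46 and 0.0266 to 1.09 percentage points and 91.5 to 294 genes. With libraries left out they were 0.228 to 1.21, 0.0266 to 1.09 and 91.5 to 230 (0 passed the exact permutation test, which cannot fall below p = 0.1). The difference in the effective number of genes was -6.95 with class A and G identifiers only, and -224 to 395 with libraries left out, turning to -224, -140 and -102 without top library 1, top library 2 and bottom library 3. That in genes detected at equal depth, -251, was -516 to 117 with libraries left out, turning to 117 without top library 3. The causes were not tested. Genes at 100 FPKM or more were fewer in the bottom in all 11 alternatives, which were chosen after seeing the data, by -299 at a threshold of 50 FPKM to -49.7 at 200 FPKM. With 3 libraries a side, the exact permutation test could not fall below p = 0.1, whatever the size of a concentration difference. Differences smaller than the spread between the top libraries could also not be told apart from that spread.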
